A study of Mus musculus with 7 samples.

Results

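The voltage-gated calcium and sodium channels were described here through 29 genes, matched by symbol among the 55536 genes of the count tables. All 29 were found. They comprise 8 pore subunits of calcium channels, 2 alpha2delta subunits, 4 calcium channel beta subunits, 6 pore subunits of the sodium channel family, 3 sodium channel beta subunits, the sodium leak channel *Nalcn* and 5 channels that release calcium from internal stores. Their transcripts were counted in single nuclei of the mouse hippocampus and summed per well of the first barcoding round and per cell type. Arctic48 mice (Arc), an amyloid model on a C57BL6/J background, carry a human *APP* transgene with the Indiana, Swedish and Arctic mutations, and wild-type mice (WT) do not. The promoter of the transgene is not given in the sources used here. By the labels, mice of both genotypes drank for 12 weeks water (veh) or water with 20 μg/ml of PMX205 (PMX), a cyclic peptide that blocks the complement receptor C5aR1, and all were perfused at 10 months of age. The study's text gives the treatment of this cohort as a span of ages, and its weight records cover a shorter time than the labels state. The groups were thus WT-veh, Arc-veh, WT-PMX and Arc-PMX. Each of these 4 had 6 wells, of which 3 came from females (wells F1, F2 and F3) and 3 from males (M1, M2 and M3), and the nuclei of a well came from a portion of the hippocampi of 1 mouse.

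Voltage-gated calcium channels open when the membrane depolarizes. Their alpha1 subunit forms the pore and sets the class, which is P/Q (*Cacna1a*), N (*Cacna1b*), L (*Cacna1c*, *Cacna1d*), R (*Cacna1e*) or T (*Cacna1g*, *Cacna1h*, *Cacna1i*), while alpha2delta and beta subunits control how many channels reach the membrane and how they gate. Sodium channels carry the upstroke of the action potential, *Nalcn* passes a resting inward leak of sodium, and ryanodine receptors (*Ryr1* to *Ryr3*) and IP3 receptors (*Itpr1*, *Itpr2*) empty calcium from the endoplasmic reticulum.

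The 7 deposited sublibraries share their wells and were added up, and 7920 of the 43885 kept nuclei had a barcode name that was also kept in another sublibrary, since names are unique only within one. Wells held 1150 to 3111 kept nuclei and 4389302 to 30001277 transcripts. Nuclei were clustered without the 29 genes and named from markers fixed by type, so that each name means cells like that type. The named types held 8608 dentate granule cells, 4990 CA1 and 2538 CA3 pyramidal cells, 4326 interneurons, 5262 other excitatory neurons, 5443 astrocytes, 4162 oligodendrocytes, 1276 oligodendrocyte precursors (OPCs) and 1518 microglia, and 3469 nuclei stayed unnamed. The 6 microglial markers summed to 8030 to 13520 CPM (counts scaled to the transcript total of the nuclei of a type in a well) in microglial nuclei. Microglia were scarce in WT, with 10 to 47 nuclei per well used against 55 to 160 in Arc. Wells F3 and M3 of WT-veh held 0 and 3 microglial nuclei, which left 4 WT-veh wells for microglia, and 14 and 28 oligodendrocytes. As a check of the genotype labels, *App* in dentate granule cells lay between 271 and 424 CPM in the 12 WT wells and between 424 and 777 CPM in the 12 Arc wells, and the well WT-PMX F3 lay just inside the Arc range. The check was weaker in the other neurons, where 5 WT wells in CA1, 2 in CA3, 4 in other excitatory neurons and 11 in interneurons lay inside the Arc range. A mouse reference counts human *APP* reads only as far as they map to *App*. The study's reporting summary mentions the exclusion of 1 WT sample with the expression of an Arctic mouse but gives no well for it. No well was removed here for that reason.

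Each of the 29 genes was detected in neurons, and 27 of them had their highest mean level in a neuronal type. The share of all genes with their highest mean in a neuronal type is not given here. Dentate granule cells held the highest mean of 8 genes, CA1, CA3 and interneurons of 5 each and other excitatory neurons of 4. OPCs held the highest mean of the other 2, *Nalcn* and *Itpr2*. For most genes the ranges over wells of the first and the second type overlapped. The exceptions were *Cacna2d2*, 5.01-fold higher in interneurons than in the next type (OPC), and *Cacnb2*, 1.62-fold higher in CA1 than in CA3. These levels describe types that were defined by clustering the same nuclei, and they carry no test. Counts of nuclear RNA depend on gene length, so levels are compared within a gene and not between genes.

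**Figure D1:**
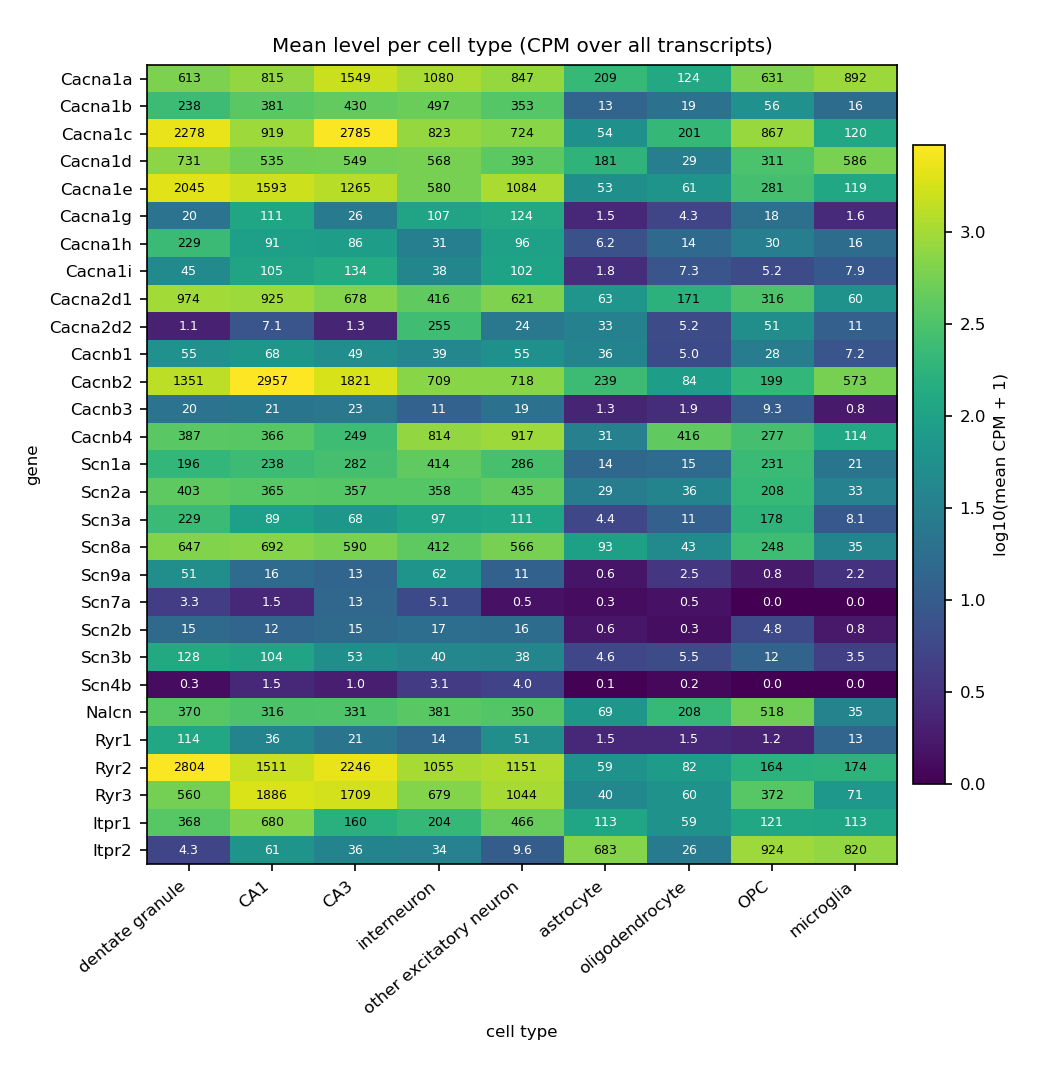
Mean level of each of the 29 genes (rows) in 9 cell types (columns), in CPM over all transcripts, averaged over the 24 nucleus wells (22 for microglia), with color on a log10(CPM + 1) scale and the mean printed in each cell. *Cacna2d2* is at 255 CPM in interneurons and 1.09 in dentate granule cells, and *Itpr2* is at 683 to 924 CPM in astrocytes, microglia and OPCs and at 60.9 or less in every neuronal type.

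Among the calcium channel pores, *Cacna1a*, the P/Q-type pore of fast synaptic release, was highest in CA3 at 1549 ± 258 CPM (SD, n = 24 wells), followed by interneurons at 1080 ± 179. CA3 was the higher of this pair in 24 of 24 wells, although the ranges overlapped (1084 to 2369 against 833 to 1392). *Cacna1a* then stood at 892 in microglia, a mean over wells that differed by genotype (163 CPM in WT-veh and 1449 in Arc-veh), 847 in other excitatory neurons, 815 in CA1, 631 in OPCs and 613 in dentate granule cells. Neighbors in that order overlapped down to dentate granule cells, which lay 2.93-fold above astrocytes with no overlap. *Cacna1b*, the N-type pore, ranged less among neurons, from 238 ± 33.2 CPM in dentate granule cells to 497 ± 65.2 in interneurons.

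The L-type pore *Cacna1c* separated the neurons into 2 sets. CA3 (2785 ± 282 CPM) and dentate granule cells (2278 ± 267) lay above CA1 (919 ± 136), interneurons (823 ± 164) and other excitatory neurons (724 ± 86.3), with a 2.48-fold gap and no overlap between dentate granule cells and CA1. The second L-type pore, *Cacna1d*, was far more even, at 393 ± 56.6 to 731 ± 56.9 CPM across neurons, and highest in dentate granule cells. The log2 ratio of *Cacna1d* to *Cacna1c* counts, whose differences across types do not depend on gene length, was therefore lowest among neurons in CA3 (−2.34 ± 0.11, n = 24) and highest in interneurons (−0.51 ± 0.25). It was positive in astrocytes (1.77 ± 0.50) and in microglia (2.56 ± 1.19, n = 22 wells, of which 4 had a 0 for either gene). *Cacna1e*, the R-type pore, was highest in dentate granule cells (2045 ± 182 CPM), and its range of 1782 to 2438 overlapped that of CA1 (1321 to 1850).

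The T-type pores differed in the type with the highest mean. *Cacna1h* was highest in dentate granule cells (229 ± 77.1 CPM), 2.39-fold above the next type and higher than it in 24 of 24 wells. *Cacna1g* stood at 124 ± 39.8 CPM in other excitatory neurons, 111 ± 32.4 in CA1 and 107 ± 33.4 in interneurons, which overlapped, and at 20.2 ± 9.71 in dentate granule cells and 25.9 ± 11.5 in CA3. *Cacna1i* was highest in CA3 (134 ± 27.7 CPM), with overlap of CA1 (105 ± 20.2) and other excitatory neurons (102 ± 33.3). Among neurons it was lowest in interneurons (38.2 ± 14.3).

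The alpha2delta subunits were split between cell types. *Cacna2d1* stood at 974 ± 97.1 CPM in dentate granule cells, 925 ± 98.8 in CA1 and 678 ± 88.8 in CA3. *Cacna2d2* was nearly missing from those cells, at 1.09, 7.12 and 1.27 CPM, and stood at 255 ± 76.3 in interneurons, where its lowest well (124 CPM) lay above the highest well of every other type except microglia, where 1 well reached 163 CPM on 3 counts. The log2 ratio of *Cacna2d2* to *Cacna2d1* counts was −9.93 ± 1.29 in dentate granule cells and −0.72 ± 0.73 in interneurons. The former rests on 69 *Cacna2d2* counts over 24 wells, of which 5 had 0. It thus also depends on the constant added to each count.

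The beta subunits, which bind the pore from the inside of the cell, also differed. *Cacnb2* reached 2957 ± 151 CPM in CA1, 1821 ± 183 in CA3 and 1351 ± 74.2 in dentate granule cells, but 709 ± 110 in interneurons and 718 ± 117 in other excitatory neurons. *Cacnb4* ran the other way, at 917 ± 94.9 and 814 ± 67.1 CPM in other excitatory neurons and interneurons against 387 ± 31.7 in dentate granule cells and less in CA1 and CA3. The log2 ratio of *Cacnb2* to *Cacnb4* counts was 3.02 ± 0.15 in CA1 and −0.21 ± 0.28 in interneurons, and these ranges did not overlap (2.66 to 3.24 against −0.85 to 0.18). *Cacnb1* lay between 39.4 and 68.0 CPM and *Cacnb3* between 11.3 and 22.8 CPM in the neuronal types.

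Of the sodium channel pores, *Scn2a*, the axonal channel of principal cells, lay between 357 ± 37.7 CPM in CA3 and 435 ± 53.5 in other excitatory neurons, and *Scn8a*, the channel of the initial segment and nodes, between 412 ± 44.8 in interneurons and 692 ± 70.3 in CA1. *Scn1a*, known as the main sodium channel of fast-spiking interneurons, was highest in interneurons (414 ± 61.1 CPM) and 1.45-fold above the next type, and higher there in 23 of 24 wells. The log2 ratio of *Scn1a* to *Scn2a* counts ran from −1.04 ± 0.15 in dentate granule cells to 0.21 ± 0.26 in interneurons, without overlap of those 2 ranges. *Scn3a*, best known from the developing brain, was highest in dentate granule cells (229 CPM, 188 to 280 over wells), followed by OPCs (178 CPM, 59.2 to 293), with a log2 ratio to *Scn2a* of −0.81 ± 0.12 in dentate granule cells and −2.40 ± 0.17 in CA3. *Scn9a* was at 62.4 ± 25.3 CPM in interneurons, 50.6 ± 13.4 in dentate granule cells and at most 15.5 in the other neuronal types. *Scn7a*, which codes for a sodium-sensing member of the family, was at 13.03 ± 3.57 CPM in CA3 and at 5.11 or less elsewhere. It had 0 counts in OPCs and microglia, which allows up to 0.89 and 1.5 CPM (3 counts over all wells of the type).

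Among the sodium channel beta subunits, *Scn3b* stood at 128 ± 15.2 CPM in dentate granule cells and 104 in CA1 (79.9 to 134 over wells). *Scn2b* lay between 12.4 and 17.2 CPM in all 5 neuronal types. *Scn4b* stood at 4.02 ± 4.28 CPM in other excitatory neurons and 3.07 CPM (0 to 29.02 over wells) in interneurons, and had 0 counts in OPCs and microglia, with the same limits as *Scn7a*. The leak channel *Nalcn* varied little among neurons (316 ± 34.9 to 381 ± 62.1 CPM) and was highest in OPCs (518 ± 83.0).

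Of the calcium release channels, *Ryr2* was highest in dentate granule cells (2804 ± 208 CPM) and *Ryr3* in CA1 (1886 ± 179) and CA3 (1709 ± 136). The log2 ratio of *Ryr3* to *Ryr2* counts ran from −2.33 ± 0.12 in dentate granule cells to 0.32 ± 0.13 in CA1, without overlap. *Ryr1*, best known from skeletal muscle, was at 114 ± 22.8 CPM in dentate granule cells and at 51.2 or less in the other types. *Itpr1* was highest in CA1 (680 ± 52.5 CPM) and lowest among neurons in CA3 (160 ± 23.5). Unlike the other release channels, *Itpr2* was highest in glial types, at 924 ± 105 CPM in OPCs, 820 ± 220 in microglia and 683 ± 92.4 in astrocytes. It stood at 26.0 ± 13.5 in oligodendrocytes. Among neurons it was highest in CA1 (60.9 ± 13.5), like *Itpr1* and *Ryr3*, and lowest in dentate granule cells (4.27 ± 1.37). The log2 ratio of *Itpr2* to *Itpr1* counts was −6.40 ± 0.38 in dentate granule cells and between 2.60 and 2.92 in astrocytes, microglia and OPCs.

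The interneuron class hid large contrasts between its 4 clusters. A cluster without a subclass name (cluster 6, led by *Ano1* and *Gad2*) held 0.826 to 70.2% of the interneurons of a WT-veh well. *Cacna1e* stood at 1475 ± 168 CPM in it (n = 17 wells with at least 10 of its nuclei), against 129 ± 56.4 in the cluster with markers of interneurons from the medial ganglionic eminence (MGE) and 140 ± 85.3 in the one from the caudal eminence (CGE; n = 24 each). *Ryr3* stood at 1829 ± 319 CPM in cluster 6 and at 110 ± 50.8 and 233 ± 98.6 in the MGE and CGE clusters. *Cacna2d2* was at 391 ± 88.6 CPM in cluster 6 and 290 ± 70.5 in the MGE cluster, but at 43.9 ± 17.6 in the CGE cluster. *Cacna2d1* was at 2296 ± 444 CPM in the fourth cluster (cluster 25, led by *Gad2* and *Erbb4*, n = 23) and at 29.6 ± 16.6 in the MGE cluster. *Cacna1a* was highest in the MGE cluster (1453 ± 263 CPM) and *Cacna1c* in the CGE cluster (1306 ± 147). *Scn9a* stood at 129 ± 32.3 CPM in cluster 6 and at 57.8 ± 20.9 or less in the other 3 clusters. The levels of these genes in all interneurons of a well therefore also depend on the share of each cluster in that well.

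Glial nuclei also held transcripts of neuronal genes. Neuronal RNA was gauged by 10 neuronal genes that are no members, whose summed level in glia was 3.37 ± 0.999% of that in the neurons of the same well in astrocytes (SD, n = 24), 4.55 ± 1.75% in oligodendrocytes, 4.94% in OPCs (3.52 to 7.09%) and 7.49 ± 4.48% in microglia (n = 22). Each member's glial level was set against its own level in the pooled named neurons of the same wells, in which abundant types weigh more. These percents compare CPM between types and depend on the scaling. With scaling factors by TMM over all wells and types, *Nalcn* in OPCs went from 518 to 460 CPM. *Cacna2d2* in interneurons went from 255 to 288 and *Cacnb2* in CA1 from 2957 to 3754. The percents of neurons under that scaling are not given here. Of the 29 genes, 18 lay above 5 times the reference in OPCs and 4 above the neuronal level itself. In astrocytes, oligodendrocytes and microglia 7, 3 and 3 genes lay above 5 times the reference. The share of all genes above these levels is not given here, so the counts do not set the members apart from other genes. In OPCs, *Nalcn* stood at 148% of neurons, *Scn3a* at 144%, *Cacna2d2* at 104% (but 50.9 against 255 CPM in interneurons, which hold most of the neuronal transcripts of this gene), *Cacna1a* at 66.9% and *Cacna1c* at 58.2%. In microglia *Cacna1d* stood at 104% and *Cacna1a* at 95.6% over all wells, both of which pool genotypes with different levels (114 to 436 CPM of *Cacna1a* in WT and 1133 to 1900 in Arc wells). In oligodendrocytes *Itpr2* stood at 90.0%, *Cacnb4* at 77.1% and *Nalcn* at 59.3%. That *Itpr2* level was only 26.0 CPM, with 0 counts in 2 wells, against 683 to 924 CPM in astrocytes, microglia and OPCs. The reference genes do not gauge RNA from other glia. In astrocytes *Cacna2d2* stood at 67.0%, *Cacnb1* at 65.7%, *Cacna1d* at 32.3% and *Cacna1a* at 22.2%. Other genes lay at the reference and cannot be told from neuronal RNA by their level: *Ryr2* in astrocytes (3.31%), *Ryr3* in oligodendrocytes (5.03%) and *Cacna1e* in microglia (8.49%).

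**Figure D2:**
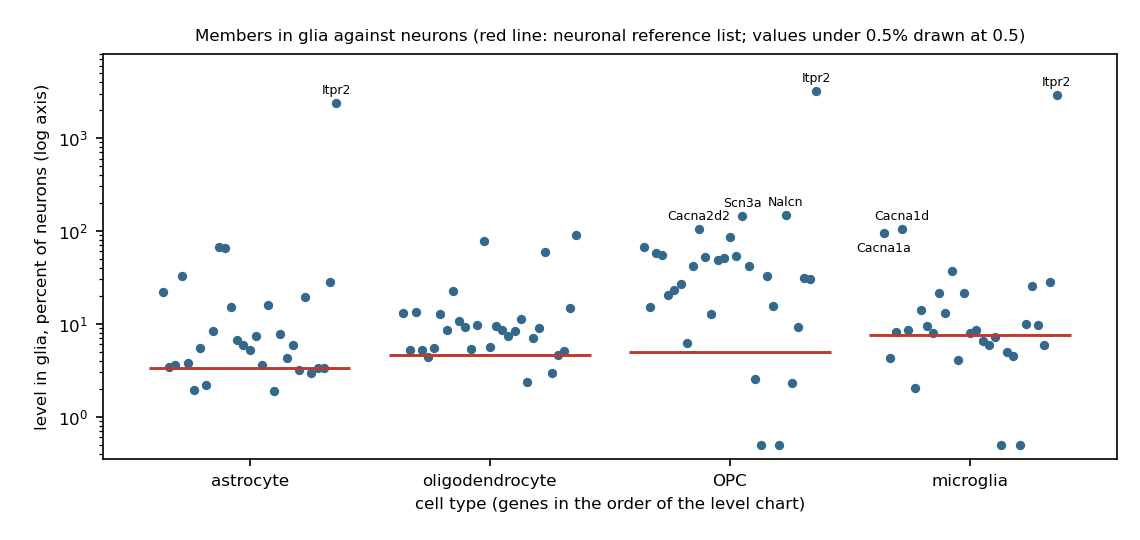
Level of each of the 29 genes in 4 glial types as a percent of its level in all named neurons of the same wells (log axis, mean over wells), with the summed level of 10 neuronal reference genes on the same scale as a red line for each type. *Itpr2* lies at 2366, 3201 and 2906% in astrocytes, OPCs and microglia, and most genes in OPCs lie above the line at 4.94%.

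The effect of the genotype was tested as Arc-veh minus WT-veh by edgeR's quasi-likelihood test on the summed counts, with sex in the model and a threshold of 0.05 on p adjusted by Benjamini-Hochberg over all genes of a type. Over the 9 types, 190 pairs of gene and type passed the filter on low counts, and 9 were called, 6 higher and 3 lower in Arc-veh. All 9 lay in glia. In microglia 4 of the 8 members that passed were called, where 11.8% of all 2156 tested genes were. In astrocytes 3 of 16 were called (12.4% of 7303 genes), in oligodendrocytes 1 of 13 (2.82% of 4650) and in OPCs 1 of 17 (1.38% of 2970). In neurons 0 of 136 pairs were called, against 0.28% of all genes in dentate granule cells, 0.0387% in CA1, 0.166% in CA3 and 0.0% in interneurons and in other excitatory neurons. Genes had to reach the filter to be tested, so a gene near 0 in one group passed through the other.

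**Figure D3:**
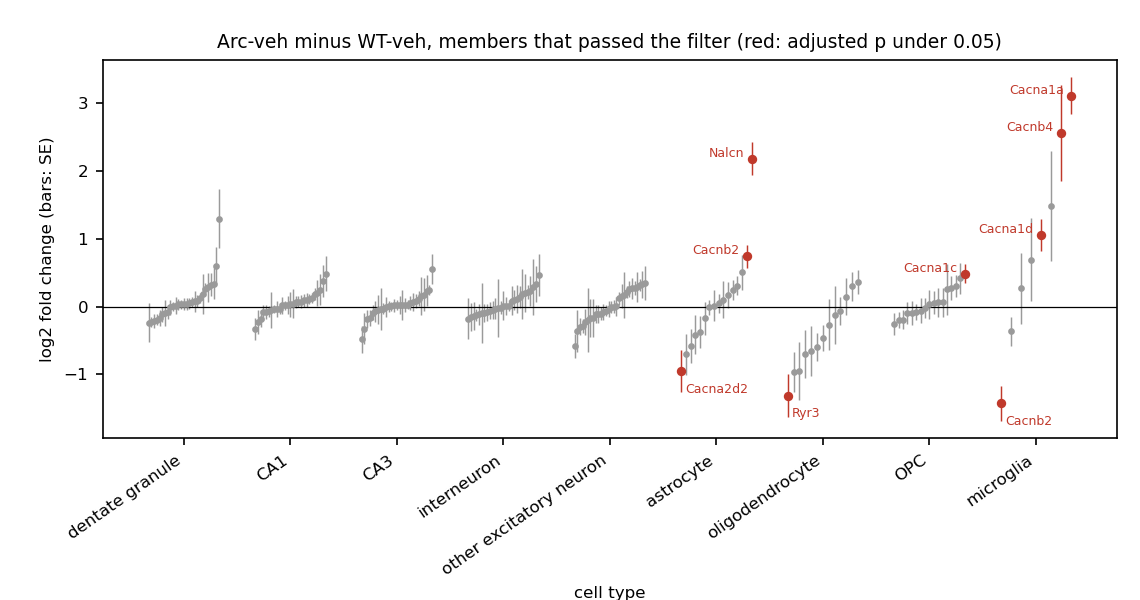
Genotype difference on vehicle (log2 fold change, Arc-veh minus WT-veh) of each of the 29 genes that passed the filter in a type (points in order of value, bars ± SE of the edgeR fit), with adjusted p under 0.05 in red. The called genes lie in glia, from *Cacna1a* in microglia at 3.11 to *Cacnb2* in microglia at −1.43, and the neuronal points lie between −0.58 and 1.30.

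In microglia the P/Q-type pore *Cacna1a* (ENSMUSG00000034656.17, chromosome 8 of GRCm38, 84388440 to 84640246, plus strand) had the largest change of any member. It stood at 128, 166, 243 and 114 CPM in the WT-veh wells F1, F2, M1 and M2. In WT-PMX it ran from 129 to 436 CPM (median 365), in Arc-veh from 1276 to 1649 (median 1425) and in Arc-PMX from 1133 to 1900 (median 1375). Every Arc well lay above every WT well, with a gap between 436 and 1133 CPM, and the Arc levels lay above the mean level of *Cacna1a* in all named neurons of the same wells (934 CPM, without TMM factors, like the percents above). Between the genotypes on vehicle it differed by a log2 fold change of 3.11 (SE 0.27, edgeR adjusted p = 1.79e-10). It rested on 19 counts in WT-veh against 1365 in Arc-veh. The gene overlaps 1 antisense transcript.

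The L-type pore *Cacna1d* (ENSMUSG00000015968.17, chromosome 14 of GRCm38, 30039939 to 30491455, minus strand) rose with it. It stood at 128, 332, 426 and 455 CPM in the WT-veh wells F1, F2, M1 and M2, at 356 to 653 (median 448) in WT-PMX, 638 to 813 (median 685) in Arc-veh and, with the drug, 650 to 855 (median 749) in Arc-PMX. All Arc-veh wells lay above all WT-veh wells, and the highest WT-PMX well lay inside the Arc-veh range. It changed by a log2 fold change of 1.06 (SE 0.23, edgeR adjusted p = 0.00159). *Cacna1d* overlaps *Chdh* and *Dcp1a* on the opposite strand, and whether strand was used in counting is not given in the sources used here.

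The beta subunits *Cacnb4* and *Cacnb2* moved in opposite directions in microglia. *Cacnb4* (ENSMUSG00000017412.15, chromosome 2 of GRCm38, 52428320 to 52676831, minus strand) had 3 counts in WT-veh, with 0, 23.7, 60.8 and 0 CPM in the wells F1, F2, M1 and M2, and 0 to 129 CPM (median 14.2) in WT-PMX. It ran from 101 to 277 CPM (median 150) in Arc-veh and, with the drug, from 126 to 280 (median 178) in Arc-PMX. Every Arc well lay above every WT-veh well, and the highest WT-PMX well lay inside the Arc ranges. Its log2 fold change was 2.56 (SE 0.71, edgeR adjusted p = 0.0124). Without the WT-veh well F2 it was 2.39 (edgeR adjusted p = 0.104) and under a stricter filter on nuclei 2.22 (adjusted p = 0.0583), no longer called. It was 3.78 without sublibrary 7 and 3.64 without the WT-veh well M1, both called, and −0.81 with nuclei named by marker score (adjusted p = 0.0918).

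*Cacnb2* (ENSMUSG00000057914.15, chromosome 2 of GRCm38, 14603088 to 14987908, plus strand) stood at 894, 710, 973 and 966 CPM in the WT-veh wells F1, F2, M1 and M2 and at 545 to 1287 (median 738) in WT-PMX. It ran from 173 to 423 CPM (median 316) in Arc-veh and, with the drug, from 228 to 520 (median 289) in Arc-PMX. Every Arc well lay below every WT well. This gave a log2 fold change of −1.43 (SE 0.26, edgeR adjusted p = 1.48e-04). *Cacnb2* overlaps 15 annotated genes, 8 of them on the opposite strand, and *Cacnb4* overlaps 3, all on the opposite strand.

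**Figure D4:**
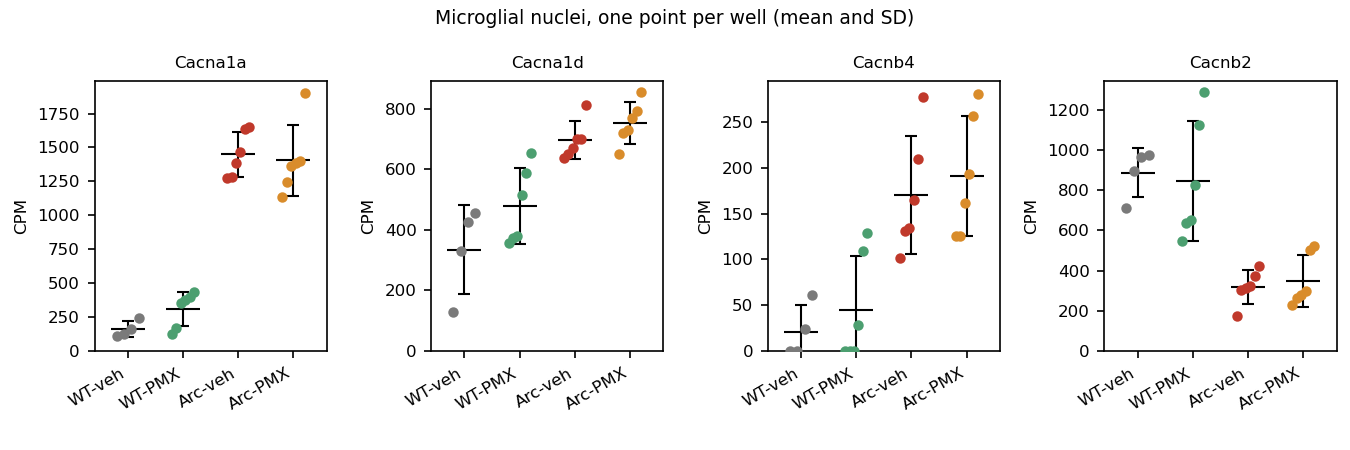
Level in CPM of the 4 called genes in microglial nuclei, with 1 point per well, the mean as a horizontal line and the SD as bars (4 WT-veh wells, 6 in each other group). *Cacna1a* sits at 114 to 436 CPM in WT wells and at 1133 to 1900 in Arc wells, and *Cacnb2* at 545 to 1287 in WT wells and 173 to 520 in Arc wells.

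The other 4 members that passed the filter in microglia, *Cacna1c*, *Cacna1e*, *Ryr2* and *Itpr2*, were not called. *Itpr2*, the abundant release channel of microglia, stood at a median of 846 CPM (638 to 1373) in WT-veh and 703 (581 to 874) in Arc-veh. Neuronal RNA, at 383 to 1277 CPM over the 10 reference genes in WT-veh microglia and 332 to 1898 in Arc-veh, overlapped between the groups. Microglial markers were lower in Arc-veh (8030 to 9033 CPM) than in WT-veh (10790 to 13520), and their part in these results was not tested. An unnamed cluster with markers of both microglia and oligodendrocytes (cluster 18) held 927 nuclei, for which neuronal RNA was not gauged. In it *Cacna1a* stood at 428 ± 52.8 CPM in WT-veh and 765 ± 131 in Arc-veh (n = 6 each), without overlap, and *Cacnb2* at 722 ± 180 and 673 ± 101. *Cacnb4* there was at 373 ± 60.3 in WT-veh and 281 ± 68.4 in Arc-veh, with overlap and the opposite order of means to the named microglia. When each nucleus was instead named by its highest marker score, *Cacna1a* stayed called (log2 fold change 1.56, edgeR adjusted p = 2.97e-05), *Cacna1d* (0.66, adjusted p = 0.0512) and *Cacnb2* (−0.39, adjusted p = 0.444) were not, and *Cacnb4* turned to −0.81 (adjusted p = 0.0918).

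In astrocytes the leak channel *Nalcn* (ENSMUSG00000000197.8, chromosome 14 of GRCm38, 123276634 to 123627144, minus strand) showed the largest change. It ran from 12.1 to 47.6 CPM (median 19.0) in WT-veh, 16.8 to 38.5 (median 28.9) in WT-PMX, 75.6 to 136 (median 118) in Arc-veh and, with the drug, 69.8 to 143 (median 116) in Arc-PMX. Every Arc well lay above every WT well. Its log2 fold change was 2.18 (SE 0.25, edgeR adjusted p = 1.49e-08). *Nalcn* overlaps 1 annotated gene, on the same strand.

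*Cacnb2* rose in astrocytes, where it fell in microglia. It ran from 121 to 317 CPM (median 173) in WT-veh, 106 to 206 (median 143) in WT-PMX, 273 to 335 (median 306) in Arc-veh and, with the drug, 245 to 409 (median 341) in Arc-PMX. The groups were apart except for the well WT-veh F3 at 317 CPM, which lay inside the Arc-veh range. The log2 fold change was 0.74 (SE 0.16, edgeR adjusted p = 0.00106).

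*Cacna2d2* (ENSMUSG00000010066.15, chromosome 9 of GRCm38, 107399612 to 107529343, plus strand) was lower, at 29.7 to 66.5 CPM (median 36.6) in WT-veh and 14.4 to 36.8 (median 19.7) in Arc-veh. It stood at 19.3 to 69.5 CPM (median 35.2) in WT-PMX and 16.1 to 50.1 (median 19.8) in Arc-PMX, and the genotypes overlapped. It changed by a log2 fold change of −0.95 (SE 0.31, edgeR adjusted p = 0.0351). The call was lost when the WT-veh wells F2 or M3 or the Arc-veh wells F2, F3, M2 or M3 were left out one at a time, with edgeR adjusted p of 0.0658 to 0.129. It was also lost without WT-veh F3 and M3 together (adjusted p = 0.0870), without sublibraries 2, 4, 5 or 6 (0.0714 to 0.120) and with doublets kept (0.0523), and held in 29 of 43 alternatives. *Cacna2d2* overlaps 2 antisense transcripts.

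The astrocyte clusters differed in size between the genotypes. A cluster led by *Gfap*, *Slc1a3* and *Osmr* (cluster 11) held 17 of 1480 astrocyte nuclei in WT-veh and 634 of 1206 in Arc-veh, while the largest cluster (cluster 2) held 1343 and 413. *Nalcn* stood at 148 ± 33.3 CPM in the Arc-veh nuclei of cluster 11 and 161 ± 47.8 in those of Arc-PMX (n = 6 wells each). Within cluster 2 it stood at 19.1 ± 6.50 in WT-veh and 27.2 ± 10.5 in Arc-veh, which overlapped. *Cacnb2* likewise stood at 340 ± 29.04 CPM in the Arc-veh nuclei of cluster 11, and within cluster 2 at 151 ± 27.4 in WT-veh and 155 ± 46.3 in Arc-veh. *Cacna2d2* was at 15.5 ± 12.98 in the Arc-veh nuclei of cluster 11 and within cluster 2 at 42.9 ± 14.8 in WT-veh and 40.7 ± 27.7 in Arc-veh. In a fit of astrocytes without cluster 11 (clusters 2 and 22), chosen after the data had been seen, none of the 3 was called by edgeR. The log2 fold change of *Nalcn* was then 0.89 (adjusted p = 0.135), that of *Cacnb2* 0.53 (adjusted p = 0.174) and that of *Cacna2d2* −0.10 (adjusted p = 0.958), and 91 genes rose and 39 fell among the 5097 tested. In the nuclei of that fit *Nalcn* averaged 22.9 ± 12.7 CPM in WT-veh and 44.3 ± 11.3 in Arc-veh (n = 6 each). *Cacnb2* averaged 173 ± 48.9 and 244 ± 69.6 there and *Cacna2d2* 43.0 ± 13.9 and 38.0 ± 16.8, and for all 3 the groups overlapped. Neuronal RNA in astrocytes was lower in Arc-veh (223 to 305 CPM over the 10 reference genes) than in WT-veh (326 to 566).

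**Figure D5:**
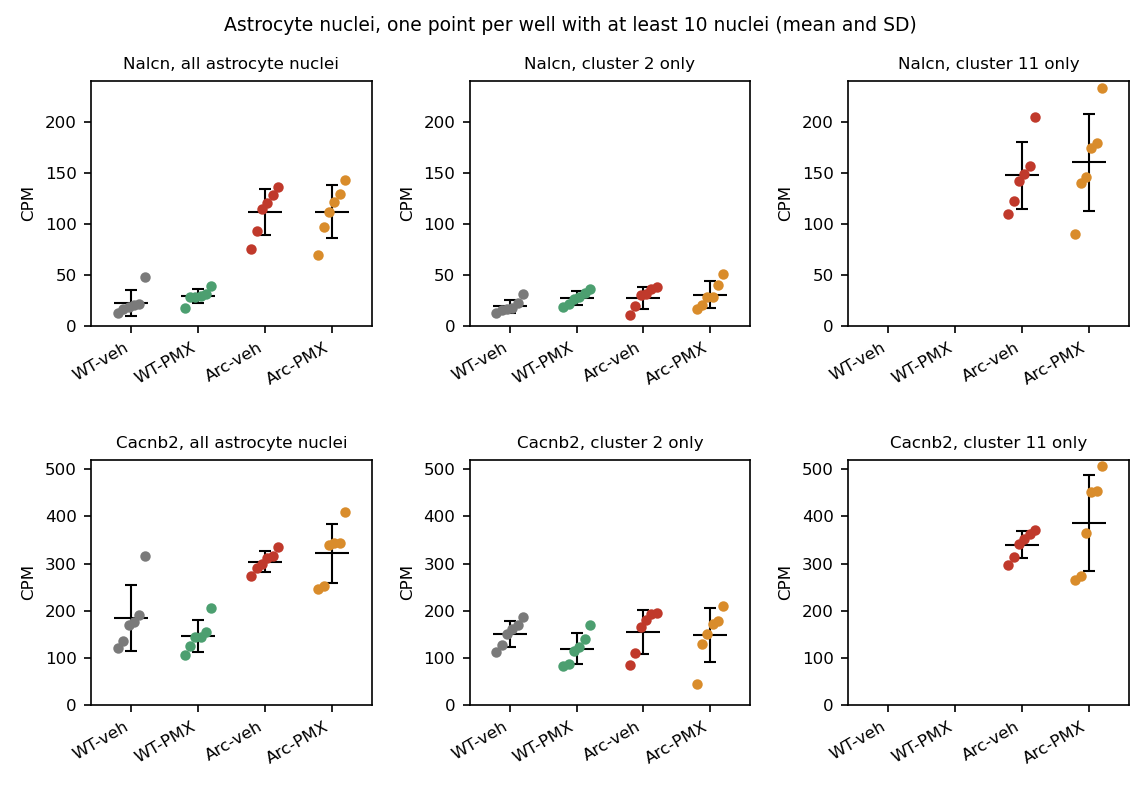
Level of *Nalcn* and *Cacnb2* in CPM in all astrocyte nuclei, in those of cluster 2 and in those of cluster 11, with 1 point per well of at least 10 nuclei, the mean as a line and the SD as bars (WT wells had too few nuclei of cluster 11). *Nalcn* is at 75.6 to 136 CPM in all Arc-veh astrocytes, at 10.4 to 37.7 in those of cluster 2 and at 110 to 205 in those of cluster 11.

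Because *Nalcn* and *Cacnb2* changed in glia, and *Cacnb2* in opposite directions in astrocytes and microglia, the 250 bases before their annotated starts are shown from RefSeq on GRCm38.p6. *Cacnb2* has 2 such windows, far apart, and the counts per gene do not tell which start was used. Of the 29 genes 22 had a window. Capitals mark GC boxes (GGGCGG on either strand), which occurred in 32.7% of 32851 windows of this length and in 12 of the 32 windows of the 29 genes. The AP-1 motif TGANTCA, searched on both strands, occurred in 6.75% of all windows and in 0 of the 32.
Cacnb2, chr2:14604056-14604305, plus strand: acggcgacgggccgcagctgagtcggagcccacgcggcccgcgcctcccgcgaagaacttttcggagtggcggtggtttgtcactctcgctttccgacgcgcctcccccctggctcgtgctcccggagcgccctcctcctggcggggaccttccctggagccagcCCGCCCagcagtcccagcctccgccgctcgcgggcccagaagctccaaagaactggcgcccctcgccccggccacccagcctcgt
Cacnb2, chr2:14823842-14824091, plus strand: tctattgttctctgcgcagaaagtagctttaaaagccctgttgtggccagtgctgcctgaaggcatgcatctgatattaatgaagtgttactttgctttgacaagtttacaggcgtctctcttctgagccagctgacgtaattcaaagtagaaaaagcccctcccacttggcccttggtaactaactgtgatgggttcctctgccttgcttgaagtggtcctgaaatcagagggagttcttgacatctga
Nalcn, chr14:123627145-123627394, minus strand: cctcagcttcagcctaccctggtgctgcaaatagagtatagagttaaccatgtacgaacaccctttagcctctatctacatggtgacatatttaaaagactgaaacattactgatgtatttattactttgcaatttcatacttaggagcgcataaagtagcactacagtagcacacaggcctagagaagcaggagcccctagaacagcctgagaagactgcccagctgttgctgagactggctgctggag
The first *Cacnb2* window holds 1 GC box and 30 CpG pairs, the second holds no GC box and 3 CpG pairs, and that of *Nalcn* holds no GC box and 2.

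In oligodendrocytes the ryanodine receptor *Ryr3* (ENSMUSG00000057378.15, chromosome 2 of GRCm38, 112631355 to 113217096, minus strand) was lower in Arc-veh. It ran from 48.4 to 124 CPM (median 96.2) in WT-veh, 12.7 to 113 (median 67.1) in WT-PMX, 23.3 to 78.7 (median 34.2) in Arc-veh and, with the drug, 8.51 to 84.3 (median 42.9) in Arc-PMX. WT-veh and Arc-veh overlapped through the wells WT-veh M3, at 48.4 CPM from 1 count, and Arc-veh M2, at 78.7 CPM, and the well WT-veh F3 also rested on 1 count. This gave a log2 fold change of −1.31 (SE 0.32, edgeR adjusted p = 0.0118). Behind it were 105 WT-veh and 72 Arc-veh counts, and it was no longer called without the WT-veh well F1 (−1.20, adjusted p = 0.0509) or F2 (−1.19, adjusted p = 0.0790), without sublibrary 5 (−1.09, adjusted p = 0.102) and with nuclei named by marker score (−0.97, adjusted p = 0.225). Its level in oligodendrocytes was near that of neuronal RNA, as given above, and the summed neuronal reference genes had a median of 546 CPM in WT-veh and 408 in Arc-veh oligodendrocytes, a difference whose part in the result was not tested. *Ryr3* overlaps *Aven* on the opposite strand. *Cacnb2* in oligodendrocytes was not called (log2 fold change −0.97, SE 0.29, edgeR adjusted p = 0.0627), but was in 10 of 42 alternatives, with values of −1.05 to −0.94. The 13 members tested in oligodendrocytes had a median log2 fold change of −0.46, with 3 above 0, beside a median of 0.01 over all genes. Before adjustment edgeR's p was under 0.05 for 6 of the 13 and for 566 of all 4650 genes.

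In OPCs the L-type pore *Cacna1c* (ENSMUSG00000051331.15, chromosome 6 of GRCm38, 118587240 to 119196418, minus strand) ran from 515 to 889 CPM (median 804) in WT-veh, 687 to 984 (median 855) in WT-PMX, 917 to 1357 (median 970) in Arc-veh and, with the drug, 605 to 1142 (median 807) in Arc-PMX. The Arc-veh wells lay above the WT-veh wells, and the Arc-PMX wells overlapped both. The log2 fold change was 0.49 (SE 0.13, edgeR adjusted p = 0.0494), close to the threshold, and the call held in 8 of 42 alternatives. Over these its value ran from 0.095 to 0.57. Leaving out single wells removed it in most cases, with the largest edgeR adjusted p without the WT-veh well M2 (0.274) and the Arc-veh well M3 (0.264). *Cacna1c* overlaps *Dcp1b* on the opposite strand.

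In neurons no member was called, while 27 or 28 of the 29 passed the filter in each type. Before adjustment p was under 0.05 in 18 of the 136 pairs, DESeq2 called none either, and the lowest edgeR adjusted p was 0.232. Of all genes of a neuronal type, 352 of 9786 (interneurons) to 984 of 10362 (dentate granule cells) lay under 0.05 before adjustment. Without the filter on low counts 1 pair was called, *Ryr1* in other excitatory neurons (log2 fold change −0.56, edgeR adjusted p = 0.0239). How large a share of all genes was called in that setting is not given here. The median log2 fold change of the tested members was 0.04 in dentate granule cells, 0.04 in CA1, 0.02 in CA3, 0.01 in interneurons and −0.02 in other excitatory neurons, beside medians of all genes between −0.0002 and 0.0119. The typical SE of a member was 0.10 in dentate granule cells and 0.21 in interneurons, which sets how small a change could have been seen. The largest differences per type were those of *Scn7a* in dentate granule cells (1.30, SE 0.44), *Ryr1* in other excitatory neurons (−0.58, SE 0.18), *Scn9a* in CA3 (0.56, SE 0.22), *Cacna2d2* in CA1 (0.49, SE 0.26) and *Cacnb3* in interneurons (0.47, SE 0.31), with edgeR adjusted p of 0.269, 0.368, 0.626, 0.751 and 0.9999. *Scn7a* stood at 1.02 to 2.77 CPM (median 1.93) in WT-veh dentate granule cells and at 0 to 6.999 (median 4.86) in Arc-veh, with overlap. *App*, by contrast, was called in dentate granule cells (log2 fold change 0.69), CA1 (0.43) and CA3 (0.36), with edgeR adjusted p of 5.89e-04, 0.0249 and 0.02545, and not in other excitatory neurons (0.42, adjusted p = 0.111) or interneurons (0.09, adjusted p = 0.9999).

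The second question of the design was whether the C5aR1 antagonist changed these genes. Between Arc-PMX and Arc-veh 0 of 190 pairs were called by edgeR, with 7 at an unadjusted p under 0.05, 0 called by DESeq2 and a lowest adjusted p of 0.864. Before adjustment, 139 of 7303 (astrocytes) to 531 of 9786 (interneurons) of all genes of a type lay under 0.05. Over all genes, 0.0137% were called in astrocytes, 0.0215% in oligodendrocytes, 0.0337% in OPCs and 0.0464% in microglia, which is 1 gene each, and 0.0% in each neuronal type. Among the genes called by genotype, *Cacna1a* in microglia had a mean of 1449 ± 165 CPM in Arc-veh and 1404 ± 263 in Arc-PMX (n = 6 each), *Cacnb2* in microglia 318 ± 84.5 and 349 ± 129, *Nalcn* in astrocytes 111 ± 22.7 and 112 ± 26.0, and *Cacnb2* in astrocytes 304 ± 21.7 and 322 ± 62.8. *Cacna1c* in OPCs stood at 1048 ± 174 in Arc-veh and 830 ± 176 in Arc-PMX (log2 difference −0.36, SE 0.13, edgeR adjusted p = 0.999).

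The member with the largest difference between Arc-PMX and Arc-veh was taken in each type. Beside *Cacna1c* in OPCs (above), these were *Cacna1e* in interneurons (0.79, SE 0.43, edgeR adjusted p = 0.864), *Cacna1e* in microglia (−0.67, SE 0.35), *Scn7a* in dentate granule cells (−0.61, SE 0.41), *Scn4b* in other excitatory neurons (0.59, SE 0.45), *Scn8a* in oligodendrocytes (0.50, SE 0.38), *Cacna2d2* in CA1 (−0.47, SE 0.27), *Scn2a* in astrocytes (0.41, SE 0.26) and *Scn2b* in CA3 (−0.35, SE 0.25). Other members of a type could exceed the values of another type, such as *Ryr3* (0.64, SE 0.44) and *Scn9a* (0.56, SE 0.30) in interneurons. *Cacna1e* in interneurons stood at 144 to 729 CPM (median 427) in Arc-veh and 543 to 1044 (median 835) in Arc-PMX. The interneurons of those wells differed in makeup, since cluster 6, rich in *Cacna1e*, held 2.72 to 59.6% of them in Arc-veh wells (median 20.96%), against 21.1 to 61.3% with the drug (median 48.8%), and its part in the difference was not tested. Without the filter on low counts, *Cacna1e*, *Ryr3* and *Scn9a* were called in interneurons, each of which was highest in cluster 6 among the 4 interneuron clusters. The share of all interneuron genes called in that setting is not given here.

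In WT mice, the drug gave 0 calls among 190 pairs as well (8 at an unadjusted p under 0.05, 0 by DESeq2, lowest edgeR adjusted p 0.855), and no gene of any type was called (0.0%). Of all genes of a type, 202 of 9786 (interneurons) to 124 of 2156 (microglia) lay under 0.05 before adjustment. The largest difference that was not called was that of *Scn7a* in dentate granule cells (0.97, SE 0.45). *Cacna1a* in microglia differed by 0.90 (SE 0.36, edgeR adjusted p = 0.855), with 47 counts in WT-PMX and 19 in WT-veh. The largest in each other type were *Cacnb2* in oligodendrocytes at −0.72 (SE 0.30), *Cacna1h* by 0.61 (SE 0.36) in interneurons, 0.38 (SE 0.23) in CA1 and 0.29 (SE 0.23) in CA3, *Scn2b* in other excitatory neurons by 0.50 (SE 0.20), *Cacnb4* in OPCs by −0.39 (SE 0.17) and *Scn2a* in astrocytes by −0.38 (SE 0.29). The difference between the drug's effects in Arc and in WT mice was called for none of 190 pairs (9 at an unadjusted p under 0.05, 0 by DESeq2) or of any other gene (0.0%). Before adjustment, 126 of 4650 (oligodendrocytes) to 117 of 2156 (microglia) of all genes of a type lay under 0.05. The largest value of this difference in each type was −1.58 (SE 0.61) for *Scn7a* in dentate granule cells, −1.09 (SE 0.86) for *Cacna1e* in microglia, 0.82 (SE 0.45) for *Ryr3* in oligodendrocytes and 0.79 (SE 0.39) for *Scn2a* in astrocytes. It was *Scn2b* with −0.72 (SE 0.28) in other excitatory neurons, −0.61 (SE 0.35) in CA3 and −0.59 (SE 0.37) in interneurons, and *Cacna2d2* in CA1 (−0.61, SE 0.38) and *Cacna1c* in OPCs (−0.48, SE 0.19). *Cacna1a* in microglia, second there to *Cacna1e*, was at −0.99 (SE 0.39, edgeR adjusted p = 0.9002). Both drug comparisons and the genotype comparison share the vehicle wells.

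Females and males were compared over all 4 groups. In microglia 3 of the 8 members that passed were higher in females, where 2.37% of all genes were called. *Cacna1e* ran from 0 to 425 CPM (median 128) in the 11 female wells and from 0 to 172 (median 57.0) in the 11 male wells, and its log2 difference was 1.88 (SE 0.33, edgeR adjusted p = 7.64e-04). *Ryr2* ran from 118 to 481 CPM (median 200) in females and from 36.2 to 213 (median 85.5) in males (log2 difference 1.61, SE 0.28, edgeR adjusted p = 7.64e-04). *Cacna1e* was called in 36 of 40 alternatives, with values down to 0.097. It was lost without sublibrary 1, with doublets kept, under the stricter filter and by marker score. *Ryr2* was called in 38 of 40, with values down to 0.12, and lost with doublets kept and by marker score. *Cacna1c* ran from 0 to 520 CPM (median 87.1) in females and from 0 to 220 (median 58.0) in males (1.45, SE 0.37, edgeR adjusted p = 0.02225). That call was lost in 15 of 40 alternatives. Single wells that removed it were Arc-PMX F3, M1 or M3 and Arc-veh F2, F3, M1, M2 or M3 (1.26 to 1.46, adjusted p of 0.0527 to 0.147), and the difference was 0.63 with doublets kept, 0.92 without sublibrary 1 and 0.34 with nuclei named by marker score. The sexes overlapped for all 3, the highest wells were Arc-veh F2 for *Cacna1e* and *Ryr2* and Arc-PMX F3 for *Cacna1c*, all female.

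Neuronal RNA in microglia also had a higher mean in females, with overlap of the sexes. The reference genes stood at 8.82 ± 5.28% of neurons in female and 6.17 ± 3.21% in male microglia (SD, n = 11 each), and at 18.7 and 14.7% in the wells Arc-veh F2 and F3, the highest of all. The overall levels of *Cacna1e* (8.49% of neurons), *Ryr2* (9.66%) and *Cacna1c* (8.09%) in microglia were near the reference of 7.49%. The part of neuronal RNA in this result was not tested. With doublets kept, none of the 3 was called. In the other types 0 members were called between the sexes, against 0.116% of all genes in dentate granule cells, 0.145% in CA1, 0.0621% in CA3, 0.0715% in interneurons, 0.0729% in other excitatory neurons, 0.151% in astrocytes and in oligodendrocytes and 0.101% in OPCs. Over all types 25 of 190 pairs lay under 0.05 before adjustment, beside 304 of 4650 (oligodendrocytes) to 1531 of 10362 (dentate granule cells) of all genes of a type. By DESeq2 2 of the 3 calls were also made, without *Cacna1c*. The T-type pore *Cacna1g* had the largest uncalled difference in 3 neuronal types, higher in females by 0.56 (SE 0.19) in dentate granule cells, 0.54 (SE 0.22) in CA3 and 0.34 (SE 0.13) in CA1, with edgeR adjusted p of 0.184, 0.293 and 0.234. Without the filter on low counts it was called in all 3 (0.55, 0.53 and 0.33, edgeR adjusted p of 0.008085, 0.01499 and 0.01557), as were *Cacna1h* in dentate granule cells and *Cacna1b* and *Scn8a*, which the filter had removed, in microglia. The differences of *Cacna1g* hardly changed with the filter. The share of all genes called without it is not given here. *Cacna2d1* was called in dentate granule cells and CA3 without the well Arc-PMX F1. The largest in the other types without a call were *Cacnb3* in interneurons (0.40, SE 0.22), *Cacna2d2* in other excitatory neurons (0.42, SE 0.22), *Scn2a* in astrocytes (−0.22, SE 0.20), *Cacna1d* in oligodendrocytes (−0.71, SE 0.31) and *Cacna1b* in OPCs (−0.37, SE 0.27).

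Of 60 further genes of calcium and sodium handling, listed by function, 59 were in the count tables and gave 320 tested pairs of gene and type. Between Arc-veh and WT-veh 11 were higher and 5 lower, again in glia alone, with 0 of 223 pairs called in neurons. In astrocytes 7 of the 31 tested rose and 2 fell, beside the 12.4% of all astrocyte genes called. Those with the largest change were the alpha2delta subunits *Cacna2d4* (log2 fold change 2.96) and *Cacna2d3* (2.01), the plasma membrane calcium pump *Atp2b4* (2.06), the sodium-calcium exchanger *Slc8a1* (1.22) and *Unc79* (0.97), a partner of the leak channel *Nalcn*. Their edgeR adjusted p were 1.12e-04, 2.89e-13, 1.19e-06, 2.83e-05 and 9.74e-05. *Camk2d* (0.72) and *Ank2* (0.53) also rose, and *Fgf13* (−0.74) and the calcium pump *Atp2b2* (−0.65) fell, with edgeR adjusted p of 7.29e-05, 6.02e-06, 0.00472 and 0.00553. Neuronal RNA was lower in Arc-veh than in WT-veh astrocytes and cluster 11 was larger, as given above. Without cluster 11 (chosen after the data had been seen), 8 of these 9 genes could be tested and 3 were called by edgeR, *Cacna2d3* (1.05, adjusted p = 9.76e-04), *Slc8a1* (0.96, adjusted p = 0.0354) and *Camk2d* (0.53, adjusted p = 0.0286). The other 5 were not, with *Atp2b4* at 1.05 (SE 0.38, adjusted p = 0.171), *Unc79* at −0.04 (0.982), *Ank2* at 0.11 (0.703), *Fgf13* at −0.10 (0.902) and *Atp2b2* at −0.46 (0.174). In microglia, where 2 of 15 were called, near the 11.8% of all genes, *Fgf13*, a regulator that binds sodium channels, rose by 2.84 (edgeR adjusted p = 2.21e-10) and the exchanger *Slc24a3* fell by 0.67 (0.0257). *Cacna2d3* also rose in oligodendrocytes (0.86, edgeR adjusted p = 0.00487) and OPCs (0.55, 0.0344). *Fam155a*, whose product is part of the *Nalcn* complex, fell in oligodendrocytes (−1.05, 0.0336), *Ank2* rose there (0.34, 0.0378), and *Cacng4* fell in OPCs (−0.54, 0.0191). These were 3 of 26 in oligodendrocytes and 2 of 25 in OPCs, beside 2.82% and 1.38% of all genes. The summed neuronal reference genes averaged 497 CPM in WT-veh and 414 in Arc-veh oligodendrocytes, and 533 and 436 in OPCs, and their part in these falls was not tested. Between the sexes, *Fam155a* (1.35), *Rims1* (1.30), *Fgf14* (1.17) and *Ank3* (1.13) were higher in female microglia (4 of 15 tested, beside 2.37% of all genes), and *Homer1* was lower in female other excitatory neurons (−0.49), with edgeR adjusted p of 0.0246, 0.0276, 0.0173, 0.0462 and 0.00417. Neuronal RNA was on average higher in female than in male microglia, as given above, and its part in these 4 genes was not tested.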

How the data were processed

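Hippocampal nuclei and cells were barcoded by combinatorial indexing (Parse). The authors aligned reads to mm10 with the split-pipe pipeline and deposited raw transcript counts per barcode and gene, with no filter on barcodes and no normalization. The version of the pipeline and its use of strand are not given in the sources used here. Groups came from the deposited sample sheet, which assigns each well of the first barcoding round, since each deposited sample is a sublibrary that mixes all wells.

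Nuclei were kept with more than 300 and fewer than 50000 transcripts, more than 400 genes and under 1% mitochondrial transcripts, the filters of the study. Doublets were removed by scrublet (score over 0.25, expected rate 0.06), which took 1253 of 45138 nuclei. The remainder was clustered with scanpy 1.11.5 (2000 variable genes, 30 components, 15 neighbors, Leiden resolution 1.5), without the 29 genes and the further list of 60. Clusters were named from fixed markers, and some thresholds of that naming were chosen with the clusters in view. Counts were summed per well and type (at least 10 nuclei) and tested with edgeR 4.0.16 in R 4.3.3 (TMM, filterByExpr, quasi-likelihood, all 4 groups in 1 fit with sex). Log2 fold changes come from this fit, while CPM levels are scaled to the transcript total without TMM. Adjusted p-values are Benjamini-Hochberg over all genes of a type. The fit was also run on simulated counts, and the outcome is not given here. DESeq2 1.42.0, other filters, namings and left-out wells were alternatives. The rule named every member called, the member with the largest difference per type and comparison, and up to 5 called genes of the further list per type and comparison. Camk2d, Ank2, Fgf13 and Atp2b2 in astrocytes were named beyond it, after their values had been seen.

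Depth was 4389302 to 30001277 transcripts per well, and counts of rare types limit precision. Each nucleus well is 1 mouse. The members and lists were chosen with earlier results of these data known. The CD11b-selected single cells entered no main comparison. Gene positions are from GENCODE M21 (GRCm38), which held 55450 of the 55536 genes.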

Additional observations from a re-analysis of the deposited data

Results flagged for a closer look

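In 6 of 48 groups of wells, taken over the genes called between genotypes or sexes, 1 well stood far from the others by Dixon's criterion, which chance meets in about 1 of 20 groups. In astrocytes *Cacna2d2* was at 50.1 CPM in the well Arc-PMX F2 (next 22.7), *Cacnb2* at 317 CPM in WT-veh F3 (next 190) and *Nalcn* at 47.6 CPM in WT-veh M2 (next 21.3). In oligodendrocytes *Ryr3* was at 78.7 CPM in Arc-veh M2 (next 36.3). In microglia *Cacna1a* was at 1900 CPM in Arc-PMX F3 (next 1397) and *Cacna1d* at 813 CPM in Arc-veh M3 (next 701).

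The CD11b-selected single cells of the same study, from tissue of 2 to 3 mice pooled per well, entered none of the comparisons above. Of them 2996 cells with at least 2 microglial marker transcripts were kept over 24 wells, and the 20 wells with at least 10 such cells were used. *Cacna1a* stood at a median of 1338 CPM (1201 to 1677) in 5 Arc-veh wells and 252 CPM (113 to 1292) in 5 WT-veh wells. The highest WT-veh value was that of the library labelled WT-veh F2, and the next was 376 CPM. That library also had the highest *Cacna1d* (809 CPM, next 698) and the lowest *Cacnb2* (359 CPM, next 757) of the WT-veh wells, within or beyond the Arc-veh ranges of 494 to 750 and 172 to 410 CPM. Its *App* (157 CPM) was the lowest of WT-veh, but *App* did not separate the genotypes in these cells (log2 difference −0.13, two-sided exact permutation p = 0.818). The study left out a WT sample whose expression was Arctic without naming it, and whether it was this library cannot be told from the sources used here. The difference in mean log2(CPM + 10) was 2.26 (two-sided exact permutation test, p = 0.0159, adjusted over 4 genes 0.0476, the smallest possible p being 0.00794). *Cacnb4* stood at a median of 156 CPM in Arc-veh and 82.2 CPM (37.8 to 207) in WT-veh, a log2 difference of 0.85 (exact permutation p = 0.111, adjusted 0.148). *Cacnb2* differed by −1.46 (exact permutation p = 0.0238, adjusted 0.0476) and *Cacna1d* by 0.36 (exact permutation p = 0.262). Without the library labelled WT-veh F2, an alternative chosen after seeing these values, the differences were 2.79 for *Cacna1a*, −1.74 for *Cacnb2*, 0.53 for *Cacna1d* and 0.89 for *Cacnb4*, given with no test since the library was chosen for its levels of these genes.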

How the results depend on the processing

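Of the 9 calls between Arc-veh and WT-veh, *Cacna1a* in microglia was called in 42 of 42 alternatives and *Nalcn* and *Cacnb2* in astrocytes in 42 of 43, lost without cluster 11. The count was 5 when nuclei were named by marker score and 5 to 9 when single wells were left out (5 without WT-veh F2). It was 12 with only the compared groups in the fit, which added *Cacnb2* in oligodendrocytes and *Ryr2* and *Ryr3* in astrocytes, and 10 without the filter on low counts and without sublibrary 7. *Cacnb2* in oligodendrocytes was called in 10 of 42 alternatives and *Cacna1c* in OPCs in 8 of 42. The replicate block gave 7 calls, without *Cacna2d2* in astrocytes and *Cacna1c* in OPCs. Correlations of same-numbered wells ran from −0.30 to 0.53, with medians per type of 0.04 to 0.10. They were not set against those of differently numbered wells, so they do not tell whether the numbers pair the wells. Without the filter on low counts, 3 members were called between Arc-PMX and Arc-veh and 9 between the sexes, and the share of all genes called in that setting is not given. The sex comparison gave 1 call without sublibrary 1, 1 under the stricter filter on nuclei, 0 with doublets kept, 0 by marker score and 2 to 5 with single wells left out (5 without Arc-PMX F1). Leaving out single wells gave 0 calls throughout in both drug comparisons and their difference. Except for astrocytes without cluster 11, the share of all genes called under these alternatives is not given here. Changes in the number of called members were therefore not set against those of all genes.

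Directions turned by marker score for *Cacnb4* in microglia between genotypes (−0.81), *Cacna1e* in microglia between Arc-PMX and Arc-veh (0.38) and in the difference of drug effects (0.14), *Cacna1c* in OPCs in that difference (0.01383) and *Cacna1d* in oligodendrocytes between the sexes (0.17). Without sublibrary 1, *Cacna1e* in microglia turned to 0.32 and 0.07989 in the drug comparison and the difference, and under the stricter filter to 0.06661 in the former. *Cacna1h* in CA3 turned to −0.002435 in WT mice without WT-PMX M1, with up to 0.413 when other wells were left out. Of the log2 fold changes of named genes under the alternatives, 2008 kept direction and side of the threshold, 79 lost the call, 5 gained one and 9 turned direction. The causes were not tested. For the mean level of each gene in its highest type, 125 values under alternatives lay within 1 SD over wells of the main value and 20 did not. The highest type stayed the same in each. Clustering with the members and leaving out cluster 11 were chosen after seeing the data.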
